A study of Mus musculus with 8 samples.

Results

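Potassium channels and the related hyperpolarisation-activated HCN channels were examined as a set of 31 genes in the dorsal dentate gyrus of mice that have or lack Cav3.1, a T-type calcium channel. The genes were chosen by name, and each was represented by the probe carrying its symbol in the platform annotation, with the probe of highest mean spot intensity over all arrays taken where there were several. Of the 31 genes, 29 had a probe, among 23473 probes on the array, and 27 were bright enough to be tested. Kcnb2 (Kv2.2) and Kcnj4 (Kir2.3) matched no probe in the annotation used and were not analysed here. The groups were wild type (WT, 4 arrays) and Cav3.1 KO (KO, 4 arrays), all from male animals labelled C57BL/6J, 8 to 12 weeks old, with no treatment given in the labels. Total RNA was labelled with Cy5 and measured on single-colour arrays. How the knockout was made and whether animals were pooled are points not given in the sources used here. No label states that every array came from its own animal, so the p-values measure only the spread between these samples, which may be technical. In tissue RNA, fewer cells of a type and less RNA per cell cannot be told apart.

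Potassium channels let potassium leave the cell and so repolarise and quieten neurons, and HCN channels carry a mixed cation current that opens on hyperpolarisation. Kv channels shape the action potential and its spread into dendrites, calcium-activated BK and SK channels produce the afterhyperpolarisation, GIRK channels open under G protein-coupled receptors, and tandem-pore channels carry the resting leak. T-type calcium channels like Cav3.1, encoded by Cacna1g, open close to the resting potential. In some neurons the calcium they admit acts on SK, BK or Kv4 channels.

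Mean blank spots ran from 53.0 to 63.4 over the arrays, 85.4% to 93.0% of probes were detected, and correlations between normalised arrays were at least 0.991. Markers of dentate granule neurons were present, with 14 of 15 detected on all 8 arrays, and so were those of interneurons (12 of 12), astrocytes (12 of 12) and CA1 and CA3 pyramidal neurons (10 of 11). The mean of the granule neuron list was 7.03 to 7.05 in WT and 6.89 to 6.99 in KO on the log2 scale. Of its 14 tested genes 5 were higher in KO, and C1ql2 was lower (-0.57, limma adjusted p 0.0065). In the other lists, Cldn5 of endothelium (-0.79, limma adjusted p 0.0182) and Gjb6 of astrocytes (0.38, limma adjusted p 0.0269) also had an adjusted p under 0.05. List means differed between KO and WT by -0.12 (microglia), -0.107 (oligodendrocyte lineage), -0.105 (granule neuron), -0.098 (endothelium and pericyte) and -0.09 (CA1 and CA3). Those of interneurons and astrocytes differed by 0.037 and 0.032. The largest differences were 0.311 (thalamus and habenula) and -0.25 (choroid plexus and ependyma). In KO, 14 of 14 tested genes of the thalamus and habenula list were higher, with 0 past the limma threshold. Of the choroid plexus and ependyma list, 2 of 10 tested were higher, also with 0 past it. The mean of thalamus and habenula markers was 7.56 and 7.57 on KO replicates 2 and 3, against 6.81 to 6.84 on the other KO arrays and 6.69 to 7.08 in WT, and that of choroid plexus and ependyma markers ran from 6.34 on KO replicate 4 to 8.17 on KO replicate 2. The blank-subtracted intensities of the thalamus and habenula list summed to 812 to 1932 in WT and 1038 to 3246 in KO, with 0 of its 15 probed genes below detection on every array. The part of these differences in the channel values was not tested. The file headers also gave 2 classes of scan gain. The slope of gain 3 on gain 1 was 0.244 to 0.247 on 3 WT arrays and on KO replicate 1, and 0.235 or 0.236 on WT replicate 3 and the other 3 KO arrays. Mean blank spots were 53.0 to 56.2 on the arrays with the steeper slope and 59.7 to 63.4 on those with the flatter. The median probe intensity before normalisation was 80.9 to 87.4 and 90.2 to 94.3, in that order. The probe for Cacna1g read 6.54 ± 0.0814 in the WT arrays (SD, n = 4) and 6.46 ± 0.0716 in the KO arrays (SD, n = 4). The limma adjusted p of that difference, -0.08 with an SE of 0.0508, was 0.816. Since the labels do not give the altered part of the gene or the position of the probe relative to it, the probe does not check the genotype.

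No potassium or HCN channel gene passed the test between KO and WT. Of the 27 genes tested, 0 had an adjusted p under 0.05 by limma, the lowest being 0.434, while 61 of all 21150 probes tested (0.288%) did. Before adjustment, 2 of the 27 had a p under 0.05, against 8.1% of all probes. Limma with a variance trend and robust estimates also called 0 of the 27. The genes were divided evenly, with 14 higher and 13 lower in KO (49.3% of all probes were higher), and the calls over all probes were 0.199% higher and 0.0898% lower. Their median difference was 0.0005 on the log2 scale, beside -0.0008 over all probes, and the median size of a difference was 0.0281, beside 0.0342. The groups did not overlap for 1 of the 27, Kcnt1, against 4.95% of all probes. The shares of members called or not overlapping were thus no higher than those of all probes.

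**Figure D1:**
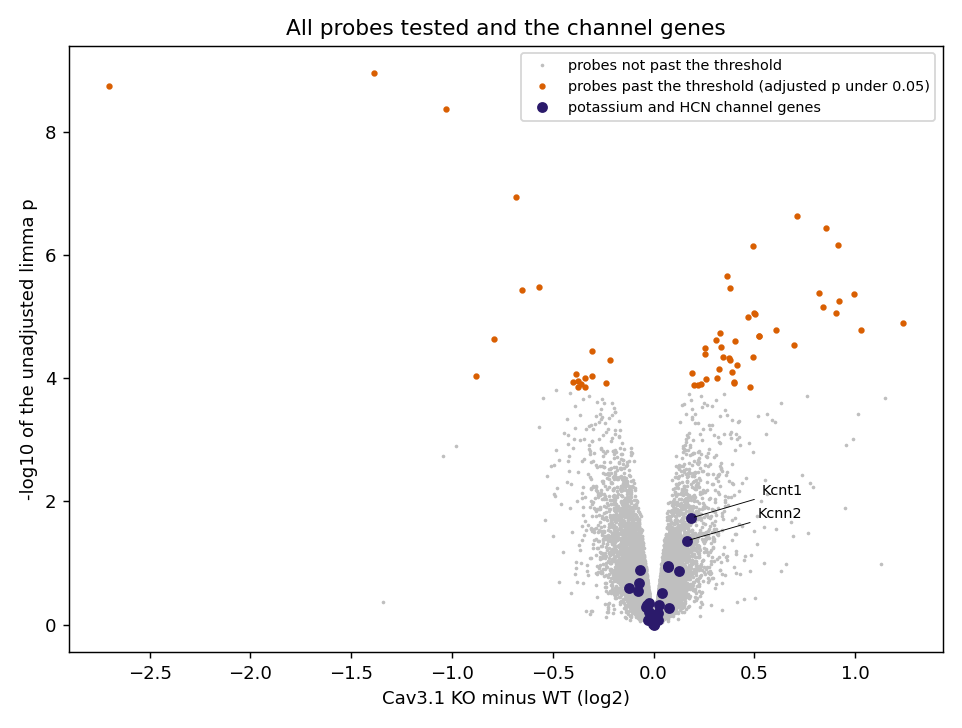
Each dot is a probe, with its difference between KO and WT (log2, horizontal) against the -log10 of its unadjusted limma p (vertical). Orange dots are the 61 probes past the threshold and dark dots the 27 potassium and HCN channel genes, all of which lie below the orange dots, with Kcnt1 and Kcnn2 uppermost among them.

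How large a change could have been missed depended on the brightness of a probe. The normalisation added an offset of 50 to every spot, which shrinks the differences of dim probes, so each difference was also taken after subtracting the mean blank spot. On the normalised scale the 95% interval lay within 1.25-fold of no change for 22 of the 27 genes and within 1.5-fold for all 27. After blank subtraction, the same held for 8 of the 25 genes with a measurable value on every array at 1.25-fold, for 22 at 1.5-fold and for all 25 at 2-fold. The differences of all 25 were larger after blank subtraction, and 24 kept their sign. The lowest adjusted p among them was 0.4 (limma).

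**Figure D2:**
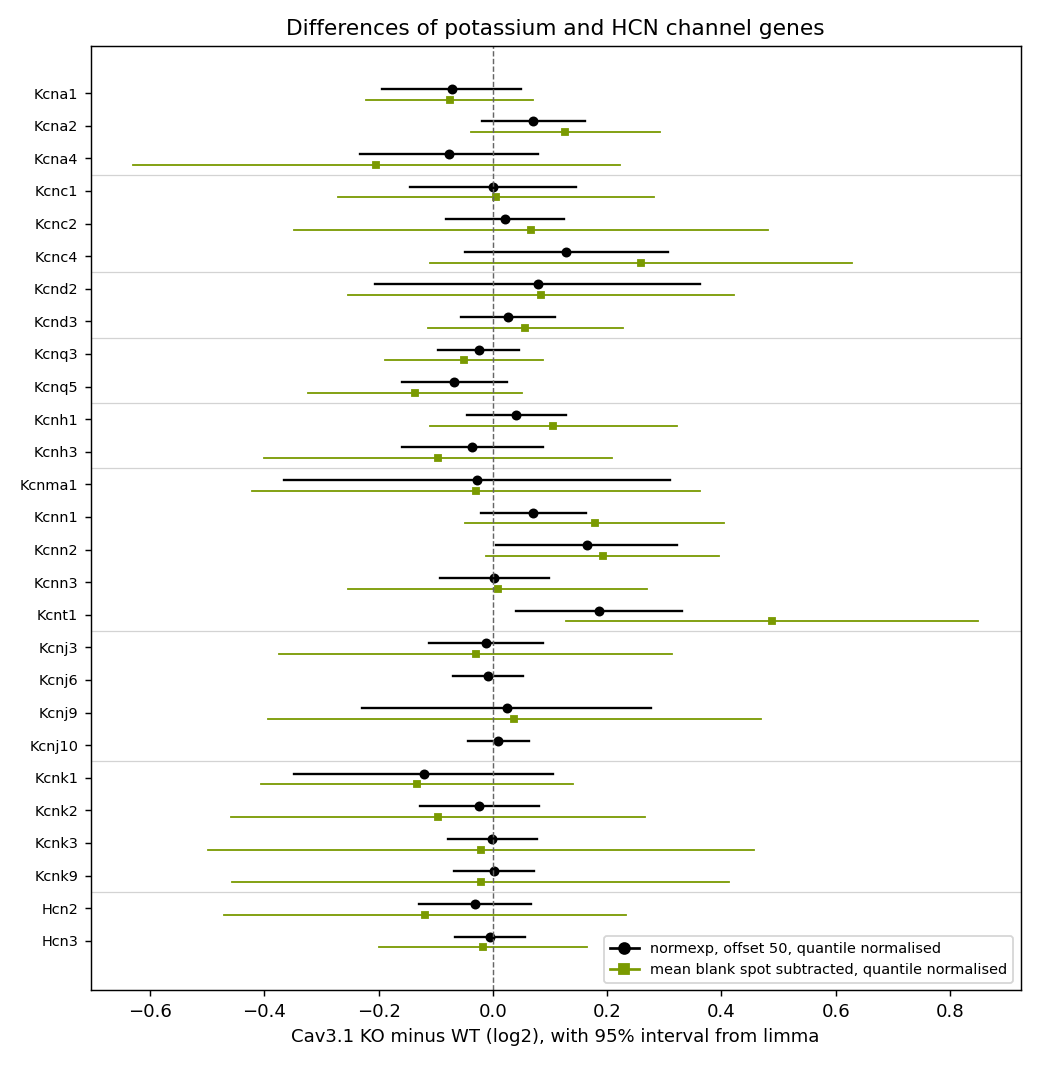
Differences between KO and WT (log2, horizontal) for the 27 genes tested, grouped by channel family from Kv1 to HCN, with 95% intervals from limma. Black circles are on the normalised scale and green squares after subtraction of the mean blank spot, where Kcnj6 and Kcnj10 had no measurable value; Kcnt1 is the gene whose interval excludes 0 on both scales, and the interval of Kcnn2 does so on the normalised scale.

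Among the channels opened by intracellular calcium or sodium, 4 of 5 were higher and 1 lower in KO, with 0 past the test. Kcnt1 encodes Slack, which is opened by sodium entering the cell. It gave 6.36, 6.27, 6.29 and 6.27 on WT replicates 1 to 4 and 6.68, 6.43, 6.41 and 6.42 on KO replicates 1 to 4. All KO arrays lay above all WT arrays, and replicate 1 stood well above the other KO arrays. The difference was 0.19 (SE 0.0631, 95% interval 0.04 to 0.33), at an adjusted p of 0.434 (limma). The exact two-sided permutation p was 0.0286, which is the minimum for groups of 4. Without KO replicate 1 it was 0.12 (adjusted p 0.276). The probe was dim, at 1.48 times the mean blank in WT and 1.60 times in KO, and the blank-subtracted difference was 0.49 (adjusted p 0.4). Another Kcnt1 probe, detected on 6 of 8 arrays, differed by 0.02 (SE 0.0225), and its groups overlapped.

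The SK channels, which are opened by calcium bound to calmodulin, were measured for all 3 genes. Kcnn2 (SK2) gave 8.39, 8.31, 8.54 and 8.59 on WT replicates 1 to 4 and 8.61, 8.56, 8.58 and 8.73 on the KO arrays. WT replicates 1 and 2 were low, WT replicate 3 lay just under the lowest KO array, and WT replicate 4 lay within the KO range. The difference was 0.16 (SE 0.0688, 95% interval 0.006 to 0.32, limma adjusted p 0.591, exact permutation p 0.0857). At 6.56 times the mean blank in WT the probe was well measured, and blank subtraction changed the difference little, to 0.19. Kcnn1 (SK1) gave 6.36, 6.39, 6.46 and 6.41 in WT and 6.55, 6.43, 6.41 and 6.51 in KO. Its groups overlapped, with KO replicates 1 and 4 above every WT array, and the difference was 0.07 (SE 0.0399, adjusted p 0.771). A second Kcnn1 probe was detected on 1 of 8 arrays and was not tested. Kcnn3 (SK3) ranged from 6.29 to 6.43 in WT and from 6.33 to 6.44 in KO, a difference of 0.002.

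Kcnma1 encodes the BK channel, opened jointly by calcium and depolarisation, and varied widely between arrays of the same group. The values were 9.68, 10.20, 9.76 and 10.00 in WT and 9.55, 10.13, 9.93 and 9.93 in KO. The spread within each group (SD 0.237 and 0.243, n = 4) exceeded the difference of -0.03 (SE 0.147, limma adjusted p 0.996) several times over. Its 95% interval, -0.37 to 0.31, was the widest of the 27 genes. The other Kcnma1 probe was highest on the same array, WT replicate 2 (7.83, against 6.98 to 7.35 on the rest), and differed by 0.05 (SE 0.169). On KO replicate 1, the lowest array by the chosen probe, it read 7.33, with 7.23 to 7.35 on the other KO arrays.

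**Figure D3:**
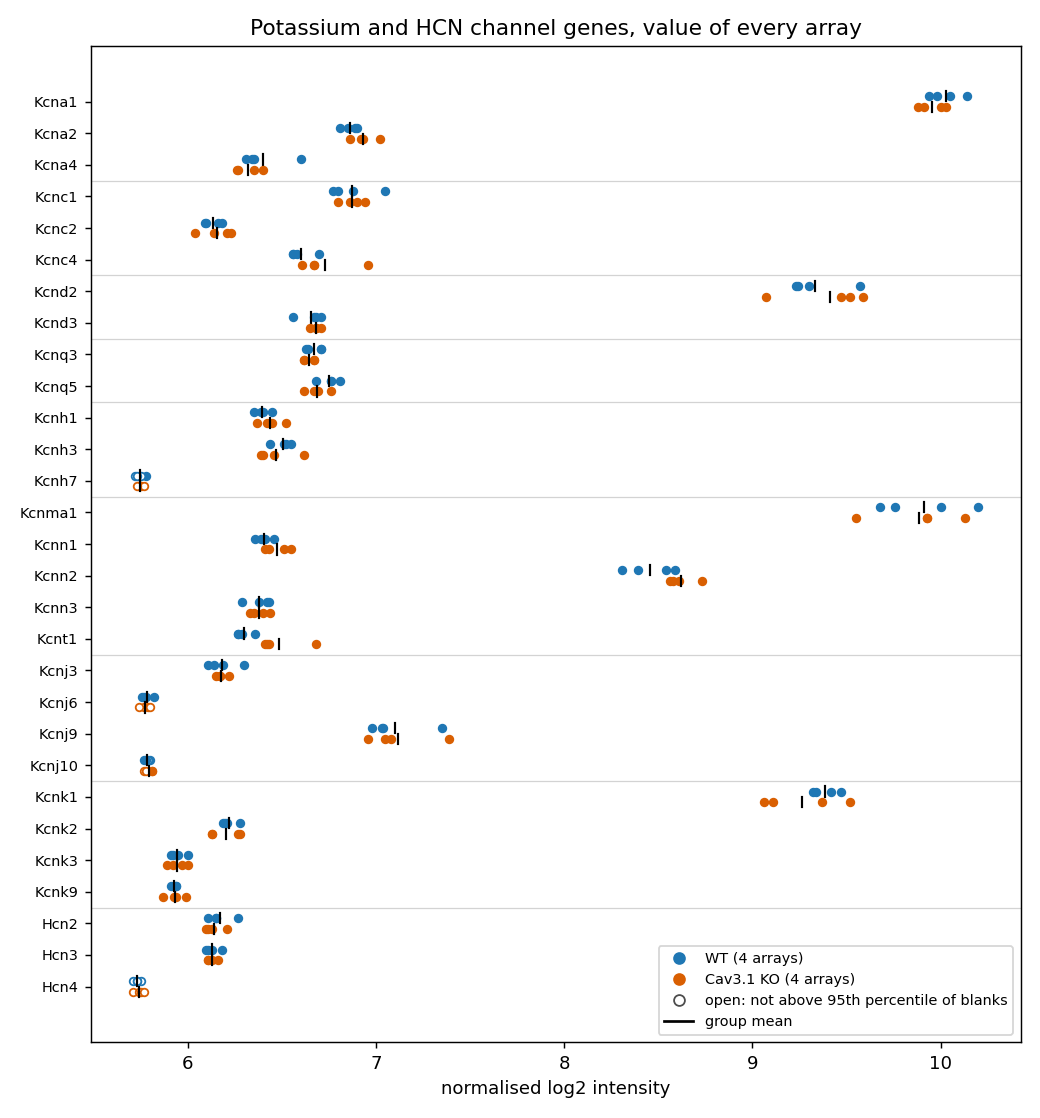
Normalised log2 intensity (horizontal) of each of the 29 genes with a probe on every array, WT in blue and KO in orange, with a black bar at each group mean and open symbols where the spot was not above the 95th percentile of blank spots. The groups lie apart for Kcnt1 and overlap for every other gene plotted; distances between genes reflect their probes and are not compared.

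In the Kv1 family, whose members set the firing threshold and act largely on axons, 1 gene was higher and 2 were lower in KO, with limma adjusted p-values of 0.762 to 0.93. Kcna1 (Kv1.1) was bright, at 19.7 times the mean blank in WT. It gave 10.05, 10.14, 9.94 and 9.98 in WT and 10.00, 10.03, 9.91 and 9.88 in KO, and the groups overlapped. Its difference of -0.07 (SE 0.0528) had an interval of -0.19 to 0.05. Kcna2 (Kv1.2) gave 6.89, 6.90, 6.81 and 6.85 in WT and 7.02, 6.92, 6.93 and 6.86 in KO. Of its KO arrays, 3 lay above every WT array and replicate 4 lay among them, for a difference of 0.07 (SE 0.0395, adjusted p 0.762). Another Kcna2 probe, at 1.09 times the mean blank, differed by 0.02 (SE 0.0269), and its groups overlapped. Kcna4 (Kv1.4), an inactivating A-type channel, gave 6.31, 6.60, 6.34 and 6.35 in WT and 6.26, 6.27, 6.35 and 6.40 in KO. WT replicate 2 alone was high, and the difference was -0.08 (SE 0.0678).

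The Kv4 channels carry the rapidly inactivating A-type current of dendrites. Kcnd2 (Kv4.2), with a mean spot intensity of 672 for WT and 686 for KO, gave 9.23, 9.57, 9.30 and 9.24 in WT and 9.07, 9.52, 9.47 and 9.59 in KO. KO replicate 1 was the lowest of all 8 arrays, while the other 3 KO arrays and WT replicate 2 were high. The difference was 0.08 (SE 0.123, limma adjusted p 0.976), and without KO replicate 1 it was 0.19 (adjusted p 0.575). Kcnd3 (Kv4.3) ranged from 6.56 to 6.71 in WT and from 6.65 to 6.71 in KO, and differed by 0.03.

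The Kv3 channels, which repolarise fast-spiking neurons quickly, gave differences of 0.0005 for Kcnc1 (Kv3.1), 0.02 for Kcnc2 (Kv3.2) and 0.13 for Kcnc4 (Kv3.4), with 0 of 3 past the test. Kcnc4 gave 6.56, 6.70, 6.56 and 6.58 in WT and 6.96, 6.67, 6.61 and 6.67 in KO. KO replicate 1 was far above the other arrays, which overlapped. Its difference (SE 0.0772) had an adjusted p of 0.804 by limma and was 0.05 (adjusted p 0.859) without that array. Kcnc1 ranged from 6.77 to 7.05 in WT and from 6.80 to 6.94 in KO, and a further Kcnc1 probe differed by -0.06 (SE 0.0287, adjusted p 0.660). Markers of GABAergic interneurons, only some of which are fast-spiking, had a list mean of 8.42 to 8.58 in WT and 8.41 to 8.67 in KO. The markers went both ways, with 8 of 12 higher in KO. Pvalb differed by 0.25 (limma adjusted p 0.585) and Npy by -0.40 (adjusted p 0.130).

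The Kv7 channels carry the M current, a slow brake on repetitive firing. Kcnq5 (Kv7.5) gave 6.76, 6.68, 6.81 and 6.76 in WT and 6.69, 6.62, 6.67 and 6.76 in KO. KO replicate 4 lay with WT and WT replicate 2 with KO, and the difference was -0.07 (SE 0.0402, limma adjusted p 0.800). Kcnq3 (Kv7.3) spanned 0.094 log2 units over all arrays and differed by -0.02 (SE 0.0307). In the EAG, ERG and ELK family, Kcnh1 (Kv10.1) differed by 0.04 (SE 0.0376) and Kcnh3 (Kv12.2) by -0.04 (SE 0.0535). Kcnh7 (Kv11.3) was above the 95th percentile of blanks on 1 of 8 arrays, with mean spots of 56.4 (WT) and 61.0 (KO) against mean blanks of 55.4 and 60, so it was not well above background and was not tested.

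Among the inward rectifiers, Kcnj9 (GIRK3), a subunit of the channels opened by GABA-B and other receptors, gave 7.03, 7.35, 7.04 and 6.98 in WT and 7.39, 6.96, 7.08 and 7.05 in KO. A single array of each group was high, WT replicate 2 and KO replicate 1, and the difference was 0.02 (SE 0.11). Kcnj3 (GIRK1) ranged from 6.11 to 6.30 in WT and from 6.15 to 6.22 in KO. Kcnj6 (GIRK2) was detected on 4 arrays and Kcnj10 (Kir4.1), the potassium-buffering channel of astrocytes, on 5, all within a few intensity units of the blank spots. The mean spot of Kcnj10 was 57.8 on WT and 62.8 on KO arrays. The astrocyte markers on the same arrays were well measured, with 9 of 12 above 2 times the mean blank and a list mean of 9.21 to 9.29 over all arrays. For Kcnj6 and Kcnj10 these probes carry little information on either group.

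The tandem-pore channels carry background leak currents. Kcnk1 (TWIK1), at 12.6 times the mean blank in WT, gave 9.42, 9.47, 9.32 and 9.34 in WT and 9.06, 9.52, 9.37 and 9.11 in KO. The KO arrays were split, with replicates 1 and 4 below every WT array and replicate 2 above them. The difference was -0.12 (SE 0.0988, limma adjusted p 0.912), and the SD was 0.215 in KO against 0.0663 in WT (n = 4 each). Without KO replicates 2 and 3, the arrays with the highest thalamus and habenula markers, it was -0.30 (adjusted p 0.187), the lowest adjusted p of any of the 27 genes under any setting tried. Kcnk2 (TREK1), Kcnk3 (TASK1) and Kcnk9 (TASK3) differed by -0.02, -0.001 and 0.001, and the probes of the TASK channels were at most 1.17 times the mean blank.

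HCN channels carry the pacemaker current Ih, and neither HCN gene tested differed beyond its spread. Hcn2 ranged from 6.11 to 6.27 in WT and from 6.10 to 6.21 in KO, with WT replicate 3 highest, and differed by -0.03 (SE 0.0426, limma adjusted p 0.972). Hcn3 spanned 6.10 to 6.18 in WT and 6.11 to 6.16 in KO, a difference of -0.005 (SE 0.0265). Both probes were dim, at 1.35 and 1.32 times the mean blank in WT, and the blank-subtracted differences were -0.12 and -0.02. Hcn4 was not above the 95th percentile of blanks on any of the 8 arrays and was not tested.

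KO replicate 1 held the highest or the lowest value of 15 of the 27 genes (55.6%), against 35.2% of all probes tested. Its low values were those of Kcnd2, Kcnma1 and Kcnk1 among others, and its high values those of Kcnt1, Kcnc4 and Kcnj9. The mean size of its deviation from the average of all arrays was 0.110 over the members, against 0.0859 over all probes, and on the other arrays it ran from 0.0438 to 0.0856 over the members. Over all members, the median spread within groups was 0.0629, close to the 0.0683 of all probes. This array was singled out after their values were seen.

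**Figure D4:**
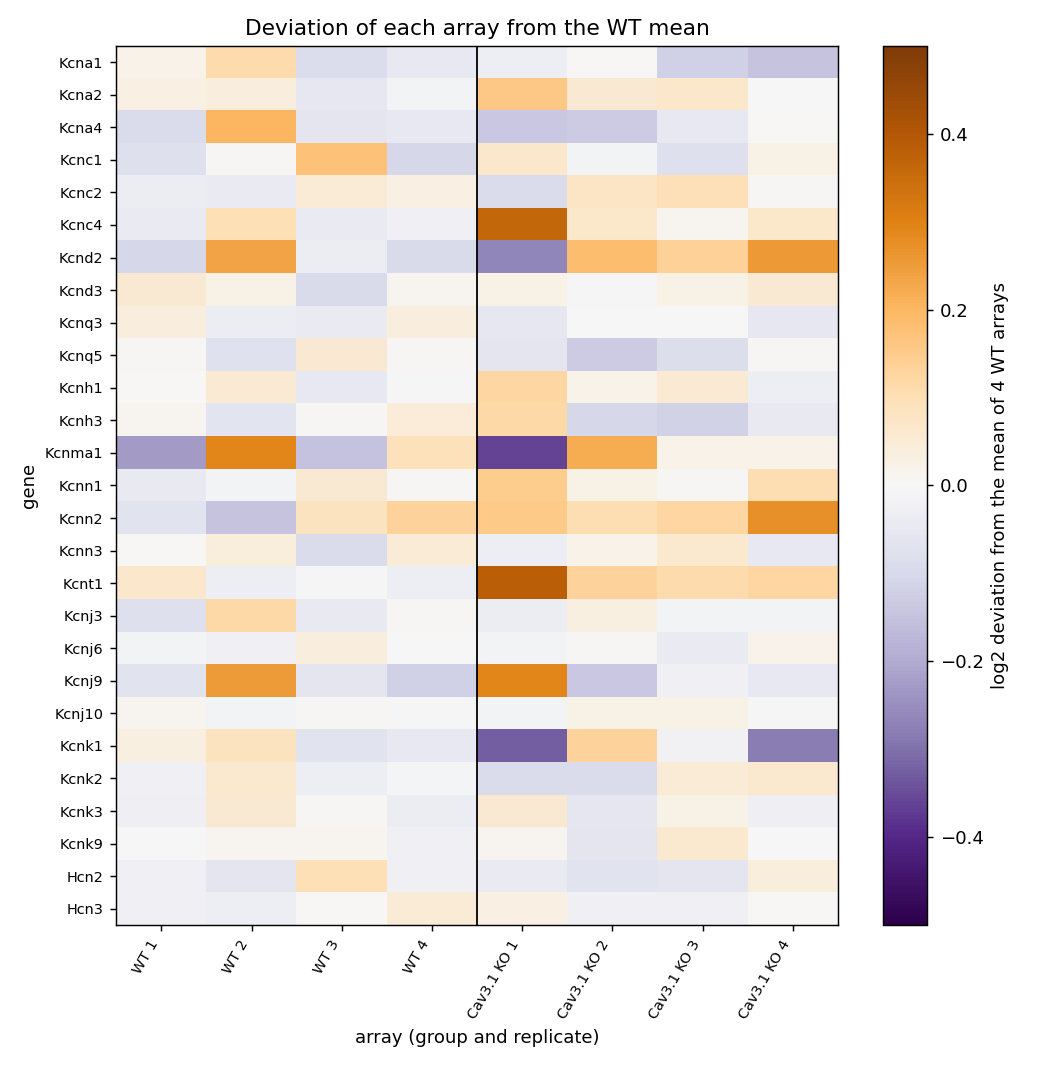
Each cell is the log2 deviation of an array (column) from the mean of the 4 WT arrays for 1 of the 27 genes tested (row), orange above and purple below. The column of KO replicate 1 holds the strongest colours, high for Kcnt1 and Kcnc4 and low for Kcnma1, Kcnk1 and Kcnd2, and the row of Kcnt1 is orange on all 4 KO arrays.

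The scan-gain classes divided the groups unequally, so the differences were also taken within each class. With the steeper slope, 3 WT arrays faced KO replicate 1 alone, and with the flatter slope WT replicate 3 faced the other 3 KO arrays. Between the classes 20 of the 27 genes (74.1%) had opposite signs, against 45.6% of the 20922 probes tested in both; the difference between these shares was not tested, and every member shares the same lone arrays. Kcnma1 differed by -0.42 and 0.23, Kcnk1 by -0.35 and 0.01, and Kcnd2 by -0.28 and 0.22, in that order. Kcnt1 was higher in both, by 0.37 and 0.13, as were Kcnn2, by 0.18 and 0.08, and Kcnc4, by 0.34 and 0.10. With the gain class as a block the difference of Kcnt1 was 0.25, with a limma adjusted p of 0.224, the lowest among the members, and 0 of the 27 passed. Since 1 class holds a single KO array and the other a single WT array, the class cannot be told apart from those arrays.

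**Figure D5:**
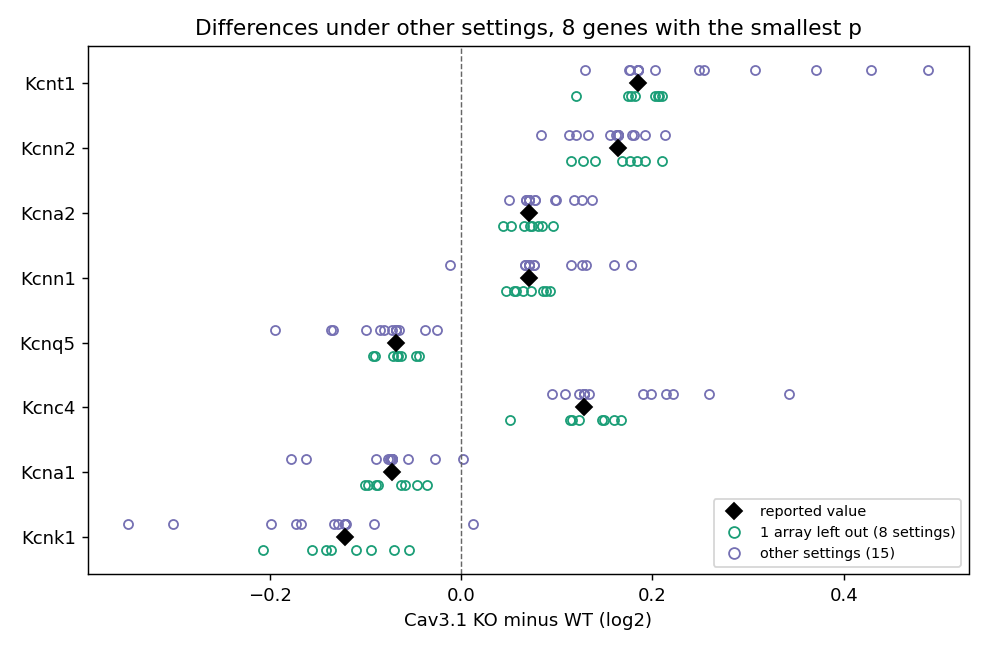
Differences between KO and WT (log2, horizontal) for the 8 genes with the smallest p, as reported (black diamonds), with each array left out (green) and under 15 other settings (purple). Kcnt1 stays between 0.12 and 0.49 and Kcnn2 between 0.08 and 0.21, while Kcnk1 runs from -0.35 to 0.01.

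The remaining genes of these channels were examined as 2 lists. Of 50 other pore-forming genes, 43 had a probe and 39 were tested, with 26 higher, 13 lower and 0 past the limma threshold. Over all probes, 49.3% were higher and 0.288% passed. Before adjustment 6 of the 39 had a limma p under 0.05 (8.1% of all probes did), and their list's median difference was 0.0177, beside -0.0008 over all probes. The groups did not overlap for 2 of the 39, against 4.95% of all probes. Kcnh2, the ERG channel Kv11.1, gave 6.95, 6.97, 6.87 and 6.89 in WT and 7.14, 7.16, 7.31 and 6.98 in KO, a difference of 0.23 (SE 0.0647, adjusted p 0.314) with no overlap. The silent subunit gene Kcng4 gave 6.49, 6.45, 6.57 and 6.49 in WT and 6.57, 6.80, 6.81 and 6.62 in KO, a difference of 0.20 (SE 0.0592, adjusted p 0.349). Its high arrays, KO replicates 2 and 3, were those with the highest thalamus and habenula markers, whose part in this value was not tested. Kcnj16 (Kir5.1), a partner of Kir4.1, differed by 0.25 (SE 0.0971, adjusted p 0.549).

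Of 39 genes for auxiliary subunits and partners, 37 were tested, with 19 higher, 18 lower and 0 past the threshold (49.3% and 0.288% of all probes were higher and past it). Before adjustment 5 of the 37 had a limma p under 0.05, against 8.1% of all probes. The groups did not overlap for 3 of the 37, against 4.95% of all probes. Dpp10, a transmembrane partner that speeds the gating of Kv4 channels, gave 6.92, 6.93, 6.87 and 6.95 in WT and 7.42, 7.46, 7.37 and 7.09 in KO. All KO arrays lay above WT, replicate 4 least so. The difference of 0.42 (SE 0.0757) had a limma adjusted p of 0.0951. Some other settings called Dpp10, among them the inferred array run as a block (adjusted p 0.0398). Another left out KO replicate 4, the KO array nearest WT (0.50, adjusted p 0.00565). Most settings did not call it, among them blank subtraction (adjusted p 0.144), the authors' value table (adjusted p 0.329) and the gain class as a block. Kcnab2, a cytoplasmic beta subunit of Kv1 channels, gave 9.26, 9.49, 9.42 and 9.63 in WT and 9.10, 9.10, 9.09 and 9.11 in KO, without overlap. Its difference was -0.35 (SE 0.0689, adjusted p 0.130), and -0.41 (adjusted p 0.0445) without WT replicate 1, the WT array nearest KO. No other setting called Kcnab2, with adjusted p-values of 0.199 after blank subtraction and 0.303 in the value table. Kctd8, an auxiliary subunit of GABA-B receptors, spanned 6.68 to 6.92 across WT and 6.89 to 7.50 across KO. It was highest, at 7.50 and 7.42, on KO replicates 2 and 3, the arrays with the highest thalamus and habenula markers, and differed by 0.40 (SE 0.138, adjusted p 0.435). The part of those markers in this value was not tested.

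The reference gene table held all 31 genes, spread over 13 chromosomes. Of the 31, 0 lie on chromosome 11, which carries Cacna1g, so no member neighbours that gene.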

How the data were processed

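The authors deposited 1 scanner file per array, which per the file headers gives a median spot intensity at 635 nm merged from 3 scan gains by least-squares lines. The value table of the series holds a linear intensity deposited by the authors scaled to a median of 25.0 on every array, and it served as an alternative. A second intensity, headed as background per the file headers, followed its own spot (correlation of logarithms 0.994 to 0.996) and was not subtracted.

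Each array had 27456 spots, 2736 of them blank. All spots entered a normexp correction (offset 50), probes were averaged, and log2 values were quantile normalised. Probes above the 95th percentile of blank spots on at least 4 of 8 arrays were tested, leaving out 2239 dim probes and 84 flagged ones. The genotype difference was fitted by limma 3.58.1 (R 4.3.3) and adjusted by Benjamini-Hochberg over 21150 probes at a threshold of 0.05. After subtraction of the mean blank, values below 4 were set to 4.

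The members and lists were chosen with earlier results of these data known. Values on every array are given for the 8 members with the smallest p, any without overlap, and, chosen after their values were seen, Kcnma1, Kcnd2, Kcna4 and Kcnj9. Of each other list the 3 genes with the smallest p are named. No label states an array run, and runs were only inferred from serial numbers in the deposited names. WT replicate 3 (number 61) and KO replicate 4 (62) were taken as a later run. Arrays numbered 44 to 51 were taken as the first. Same-numbered replicates of the groups did not deviate together (correlations -0.115 to 0.011). The number of arrays limits the precision.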

Additional observations from a re-analysis of the deposited data

Results flagged for a closer look

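Among 58 groups of 4 arrays (29 genes in each genotype), 4 held an array far from the other 3, with a gap to the nearest array, as a share of the whole range, above Dixon's 95% critical value. Chance gives about 1 in 20. Kcna4 was 6.60 on WT replicate 2, against 6.31 to 6.35 on the other WT arrays. Kcnj9 was 7.35 on the same array, against 6.98 to 7.04. Kcnc4 was 6.96 on Cav3.1 KO replicate 1, against 6.61 to 6.67, and Kcnt1 was 6.68 on that array, against 6.41 to 6.43.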

How the results depend on the processing

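Under 23 other settings, 0 of the members passed the threshold in any, and 6 of the 27 kept the sign of their difference in all. These were fits in which neither value passed, so a changed sign is no change of call. Over all probes the 61 calls became 40 with the mean blank spot subtracted, 36 with median centring, 34 in the value table, 7 in the first array run alone, 17 without Cav3.1 KO replicates 2 and 3, and, chosen after seeing the data, 23 with the gain class as a block, 0 within the steeper and 1 within the flatter class, where a lone array is assumed to vary like the others. Leaving out 1 array gave 16 to 49, the lowest without WT replicate 4, with 26 to 37 without WT replicates 1 and 3 and Cav3.1 KO replicates 2, 3 and 4. With the replicate block, 8 probes and 0 members were called and the members' median difference was 0.0005, the same as without it. The numbers name the arrays and do not pair them, and 0 of 4 WT arrays correlated best with their own number. The members' median was -0.0668 in the value table, where the median of all probes was -0.0656, and -0.0108 to 0.0112 with 1 array left out. Among the other channel genes 1, Dpp10, was called with an offset of 16, with the array run as a block, in the first run alone and with the trend and robust setting, and 0 to 1 (Kcnab2 or Dpp10) with 1 array left out. The cause was not tested. Signals near the blank level limit many members. Of the 29 with a probe, 18 were above 1.5 times the mean blank and 8 above 2 times. The limit is strongest for Kcnj6, Kcnj10, Kcnk3, Kcnk9, Kcnh7 and Hcn4.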
